A study of Schizosaccharomyces pombe with 21 samples.

Results

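The RNAs described here are the most heavily counted long non-coding RNAs of phosphate-starved fission yeast (*Schizosaccharomyces pombe*). They were chosen by their read level: a gene was taken when its identifier begins with SPNCRNA and the average of its 7 time-point means was at least 1000 normalised counts. This gave 88 genes, out of 1527 SPNCRNA genes and 6988 genes listed in all. The reference annotation classes 86 of them as long non-coding RNA and 1, SPNCRNA.445, as a small nucleolar RNA, while 1, SPNCRNA.01, had no match there. Of the 88, 8 carry a gene name of their own and 14 are described as a possible alternative untranslated region (UTR) of a neighbouring gene.

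All cells were of 1 haploid *ecl123*Δ strain (h- *ecl1*∆::hygMX *ecl2*∆::natMX *ecl3*∆::kanMX), in which drug-resistance cassettes replaced the open reading frames of 3 small paralogous genes linked to chronological lifespan. Cells in log phase in the rich medium YES gave the 0 h samples. The same strain was then moved to ePMGT(-PO4), a synthetic medium lacking phosphate, and sampled after 4, 8 and 12 h and then after 24, 36 and 48 h, with 3 biological replicates at each of the 7 times (21 samples). Every comparison with 0 h therefore covers both the missing phosphate and the new medium, all 6 comparisons use the same 0 h means, and every sample is labelled *ecl123*Δ.

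Much of the fission yeast genome is transcribed into non-coding RNA, often antisense to a coding gene or between genes. Many of these transcripts are kept scarce by the nuclear exosome, a 3′-to-5′ RNA-degrading complex that is helped by TRAMP (a helicase and poly(A) polymerase complex) and by MTREC, which works with the RNA-binding protein Mmi1 to remove meiotic transcripts during vegetative growth. Several lncRNAs act in cis: their transcription across the promoter of the next gene keeps that gene silent, as is known for *nc-tgp1*, *prt* (*nc-pho1*) and *prt2*, which lie upstream of the phosphate-responsive genes *tgp1*, *pho1* and *pho84*.

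Values are the authors' means of normalised read counts over the 3 replicates. Because only these means were used, a value has no standard deviation and no comparison here has a test; ratios are descriptions. A log2 ratio is log2((mean + 1) / (0 h mean + 1)), and a gene is called past 2-fold when this ratio is at least 1 or at most -1. The means summed to 20331922 to 27176556 per time point, and a library held about 21100000 to 25900000 counts. The mean of *ecl3* was at most 3.67 at every time, while those of *ecl1* (1472 to 4095) and *ecl2* (1934 to 3191) were not near 0 in these libraries labelled *ecl123*Δ. The source of the *ecl1* and *ecl2* counts was not tested, so the deletion can be checked here for *ecl3* alone. Where another scaling matters, the same ratio is also given from CPM, each mean per 1e+06 of its time point's sum, again with 1 added, which weighs more on that smaller scale. Counts are not divided by gene length, so levels are compared within a gene over time and not between genes.

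The 88 genes together held 0.439% of all summed counts at 0 h and 0.680%, 1.08%, 1.09%, 1.25%, 1.06% and 1.26% at the 6 later times in order. The single gene SPNCRNA.53 (*prl53*) supplied 44.2% of the members' sum at 0 h and 21.3% at 48 h. Without it the members' share was 0.245% at 0 h and 0.990% at 48 h. All 1527 SPNCRNA genes together held 1.09% of the counts at 0 h and 2.88% at 48 h. The members made up 40.5% of these SPNCRNA counts at 0 h and 43.7% at 48 h. They were chosen on these same means, mostly of starved times, which favours a higher share later, so the shares are a description.

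At 4 h, 39 of the 88 genes were at least 2-fold higher than at 0 h, beside 15.6% of the 6339 genes of all classes with an average of at least 10. The number at least 2-fold higher was 60 at 8 h (23.6% of all genes), 61 at 12 h (23.5%), 67 at 24 h (25.8%), 65 at 36 h (23.9%) and 70 at 48 h (25.8%). Those at least 2-fold lower numbered 4 at 4 h (13.3% of all genes), 1 at 8 h (16.2%), 1 at 12 h (16.1%), 3 at 24 h (17.6%), 5 at 36 h (17.9%) and 5 at 48 h (18.9%). The median log2 ratio of the 88 was 0.80, 1.68, 1.84, 2.23, 2.07 and 2.20 at the 6 times, and that of all genes stayed between 0.01 and 0.03. The median protein-coding gene with an average of at least 1000 lay at -0.04 at 4 h and between -0.17 and -0.26 afterwards.

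The rule itself takes part in these counts. It averaged over 6 starvation times and 1 unstarved time, so a gene with a 0 h mean under 1000 had to be higher later to enter, and 72 of the 88 were such genes. Among these 72, 67 were past 2-fold higher at 48 h and none was past 2-fold lower, with a median log2 ratio of 2.42. Protein-coding genes picked by the same numbers (average at least 1000, 0 h mean under 1000) were past 2-fold higher at 48 h in 294 of 433 cases, with a median of 1.54. The other 16 members, already at 1000 or more at 0 h, had 3 genes past 2-fold higher and 5 past 2-fold lower at 48 h, with a median of -0.11, and the 3429 protein-coding genes of that kind had 9.51% higher and 25.6% lower with a median of -0.40. No count of members is therefore read as a result about abundant lncRNAs as a class.

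A set taken by its 0 h mean alone, chosen after the values were seen, does not use the later times. It still takes in every member with a 0 h mean of at least 100. The 611 SPNCRNA genes with a 0 h mean of at least 100 had a median log2 ratio of 0.09 at 4 h, 0.66 at 8 h and 0.82 at 48 h. Of them, 44.7% were past 2-fold higher and 11.1% past 2-fold lower at 48 h. The 4799 protein-coding genes with a 0 h mean of at least 100 had a median of -0.26 at 48 h, with 15.3% higher and 22.8% lower. These sets were not matched in 0 h level. With average and 0 h mean both at least 1000, the 48 h medians were -0.11 for 16 members and -0.40 for 3429 coding genes.

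**Figure D1:**
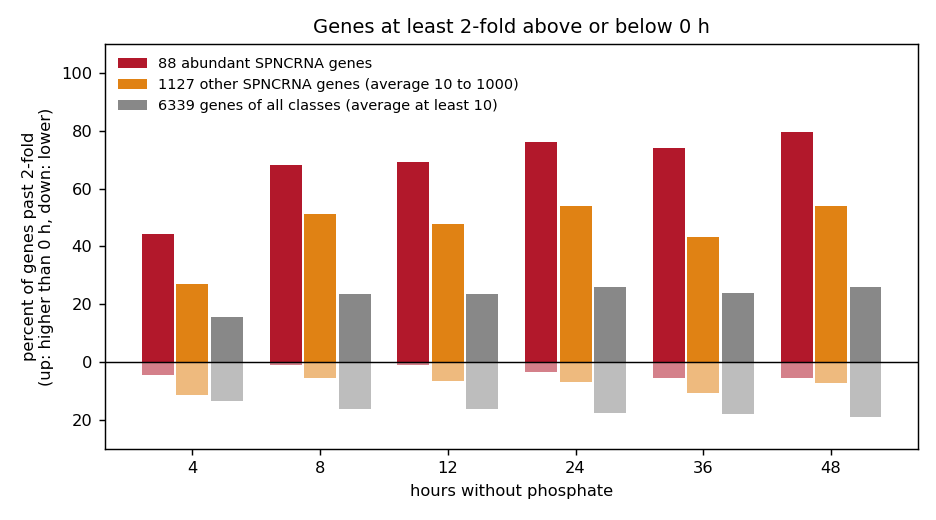
Percent of genes at least 2-fold above 0 h (bars upward) or below it (bars downward) at each starvation time, for the 88 abundant SPNCRNA genes, the 1127 SPNCRNA genes with an average from 10 to under 1000, and all 6339 genes with an average of at least 10. At 48 h the upward bars stand at 79.5%, 54.0% and 25.8%, and the selection of the 88 on their level over mostly starved times contributes to the height of their bars.

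The profiles of the 88 genes fell into a few shapes. The highest mean was at 48 h in 35 genes (39.8%, beside 17.0% of all genes with an average of at least 10), at 24 h in 22 (beside 10.3%), at 8 h in 10, at 36 h in 8, at 12 h in 5, at 4 h in 3 and at 0 h in 5 (5.68%, beside 34.5%). The lowest mean was at 0 h in 61 genes (69.3%, beside 35.7%) and at 4 h in 19 (21.6%, beside 15.7%). An average over mostly starved times also favours genes that are highest late and lowest at 0 h, so these shares are a description. Of the 70 genes past 2-fold higher at 1 or more times, 39 were so at 4 h already, 21 first at 8 h, 3 first at 12 h, 5 first at 24 h and 2 first at 48 h, and 38 were past 2-fold higher at all 6 times. The interval from 4 h to 8 h, in which both samples are starved, held 31 genes at least 2-fold higher at 8 h than at 4 h (10.2% of all genes) and 0 at least 2-fold lower (1.55% of all genes). Past 2-fold lower than 0 h at 1 or more times were 8 genes, and 13 stayed within 2-fold throughout. Counts that join several times, such as these and the 38, were not made over all genes. They describe the members and are not read as a result.

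**Figure D2:**
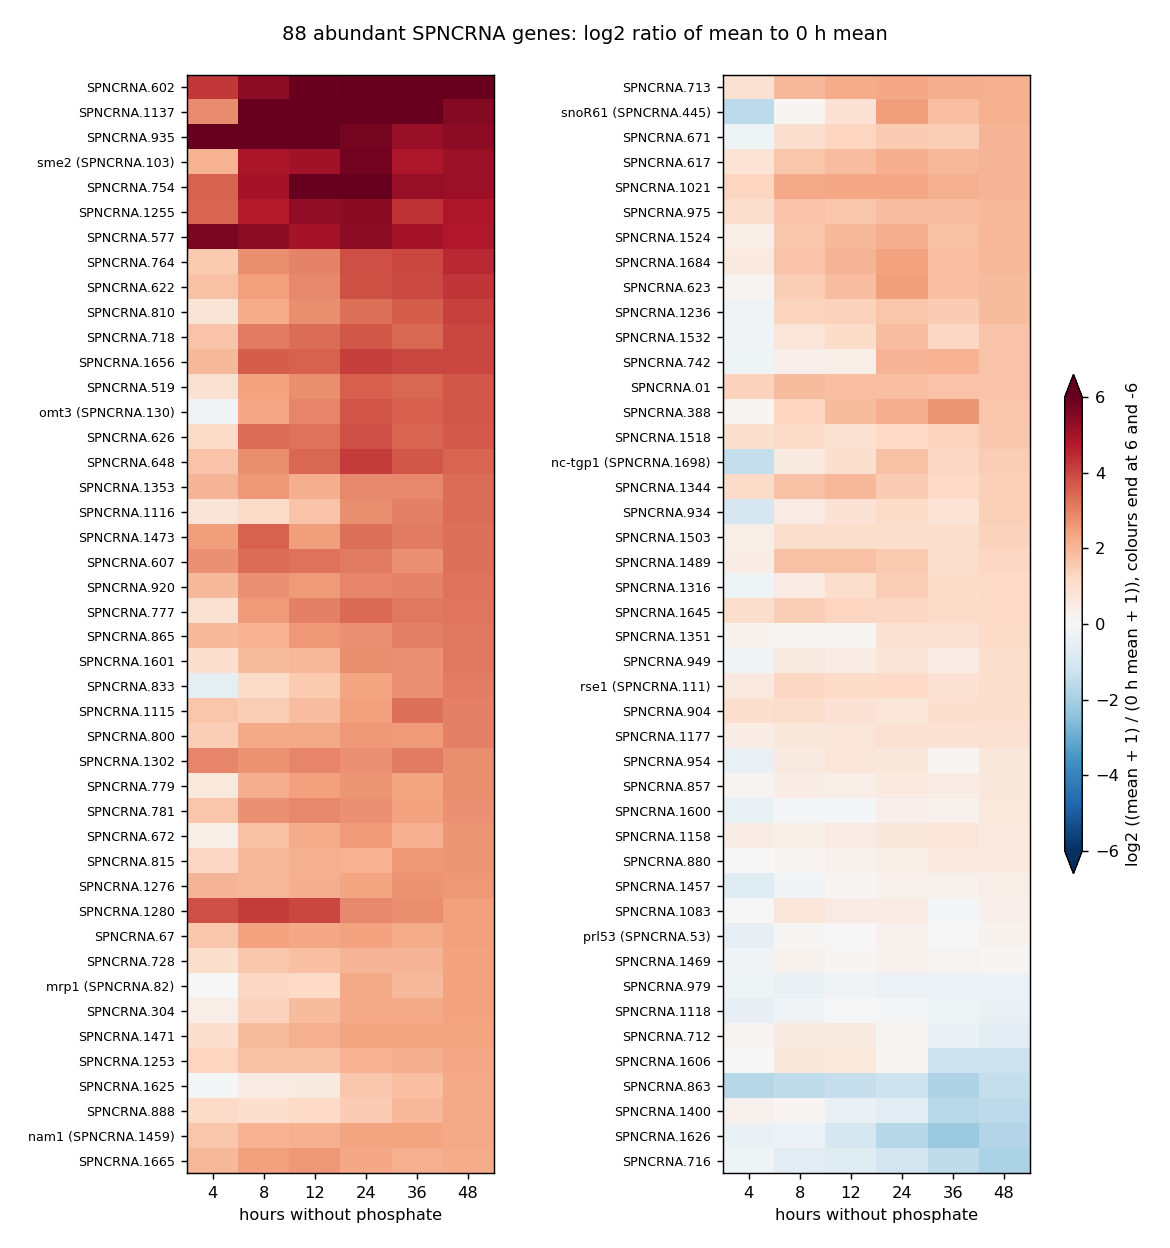
Log2 ratio of the mean at each starvation time (columns, hours) to the 0 h mean for each of the 88 genes (rows), ordered by the 48 h value from the top of the left panel to the bottom of the right one. Most rows are red from 8 h on, and the 5 rows at the foot of the right panel (SPNCRNA.1606, SPNCRNA.863, SPNCRNA.1400, SPNCRNA.1626 and SPNCRNA.716) are past 2-fold lower at 48 h.

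The widest early response belonged to SPNCRNA.935, a possible alternative UTR. Its means at the 7 times, in order from 0 h, were 237, 33230, 20513, 16260, 12880, 8991 and 9676 normalised counts. It stood highest at 4 h, 140-fold above 0 h (log2 ratio 7.13), and lower at each following time up to 36 h. The nearest coding gene on its strand is *per1*, an amino acid permease gene that follows it. The coding gene before it on that strand is *rpl1002*, a 60S ribosomal protein gene. The *rpl1002* mRNA had 33274 counts at 0 h, 2359 at 4 h and 5293 at 48 h (log2 ratios -3.82 and -2.65). *per1* had 795, 1503, 2609, 2884, 2510, 2601 and 2847 counts over the 7 times (log2 ratios 0.92 at 4 h and 1.84 at 48 h), so its mean was highest at 12 h and that of SPNCRNA.935 at 4 h. SPNCRNA.934, which overlaps SPNCRNA.935 on the opposite strand, was lowest at 4 h, with means of 658, 325, 923, 1212, 1415, 1173 and 1766. Its log2 ratio at 4 h, -1.01, was -0.77 under another scaling and so not past 2-fold there.

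SPNCRNA.577 also reached its highest mean at 4 h, with 46.4, 2387, 1986, 1492, 1950, 1498 and 1339 counts over the 7 times (log2 ratio 5.65 at 4 h and 4.82 at 48 h). SPNCRNA.1280 had 133, 1971, 2431, 2143, 988, 934 and 740 counts. Its mean was highest at 8 h and under 1000 from 24 h on. It overlaps *yme1*, a mitochondrial protease gene on the opposite strand, whose log2 ratio was -0.28 at 4 h, and *vma8*, a vacuolar ATPase subunit gene on its own strand, at 0.08.

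The largest ratio at 48 h was that of SPNCRNA.602, with 21.7, 432, 935, 1386, 2211, 2656 and 3527 counts. Its mean was higher at each time than at the time before, ending at a log2 ratio of 7.28. The 0 h mean of 21.7 stands for 61 to 63 reads over the 3 libraries, and 6 members had a 0 h mean under 50. SPNCRNA.1137 had 32.9, 243, 2299, 2311, 3159, 2097 and 1523 counts and SPNCRNA.754 had 31.8, 378, 1039, 2139, 2422, 1209 and 1145. Both were highest at 24 h, with log2 ratios at 48 h of 5.49 and 5.13. In all, 12 members were at least 16-fold higher at 48 h, beside 2.82% of all genes with an average of at least 10.

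Among the 10 members with the highest averages, several others were lowest at 0 h and highest at 36 or 48 h. SPNCRNA.622, antisense to *sty1*, had 756, 2542, 4215, 5627, 10644, 11604 and 14846 counts (log2 ratio 4.29 at 48 h). SPNCRNA.1116 and SPNCRNA.1115 overlap each other on opposite strands. SPNCRNA.1116 had 843, 1453, 1872, 2746, 5833, 6862 and 8649 counts, and SPNCRNA.1115 had 721, 2261, 2004, 2599, 4030, 7074 and 5830. SPNCRNA.1115 also overlaps, on its own strand, the uncharacterised coding gene SPCC1235.01, whose mean was 24305 at 0 h and 392761 at 48 h. SPNCRNA.728 had 1103, 2277, 3371, 3819, 4535, 4592 and 5944 counts, a log2 ratio of 1.04 at 4 h and 2.43 at 48 h.

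The 5 members past 2-fold lower at 48 h did not share a time course. SPNCRNA.863 had 6712, 2061, 2325, 2593, 2845, 1867 and 2481 counts and was the 1 member past 2-fold lower at all 6 times. SPNCRNA.1626 had 8538, 6440, 6606, 4297, 2589, 1841 and 2517, and SPNCRNA.716 had 1973, 1651, 1255, 1208, 926, 684 and 530. SPNCRNA.1606 (1184, 1185, 1911, 1840, 1267, 488 and 476) was at or above its 0 h level up to 24 h and under it from 36 h. SPNCRNA.1400 (1464, 1748, 1579, 1085, 910, 458 and 500) was above its 0 h level at 4 and 8 h and under it from 12 h. The 5 log2 ratios at 48 h ran from -1.31 for SPNCRNA.1606 to -1.90 for SPNCRNA.716.

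The members with the flattest profiles are antisense to coding genes. The highest mean was 1.32 times the lowest for SPNCRNA.979 (1503 to 1929 counts), 1.33 times for SPNCRNA.1469 (1243 to 1657) and 1.43 times for SPNCRNA.1118 (1321 to 1886). *prl53*, a polyadenylated RNA and the most heavily counted member, also stayed within 2-fold, with 52720, 37399, 55679, 51985, 63294, 53691 and 60840 counts. Its log2 ratios lay between -0.50 at 4 h and 0.26 at 24 h. A coding gene of unknown role, SPAC27E2.11c, overlaps *prl53* on the same strand and was listed at 0.700 to 5.43 counts. How reads from their overlap were assigned is not stated.

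**Figure D3:**
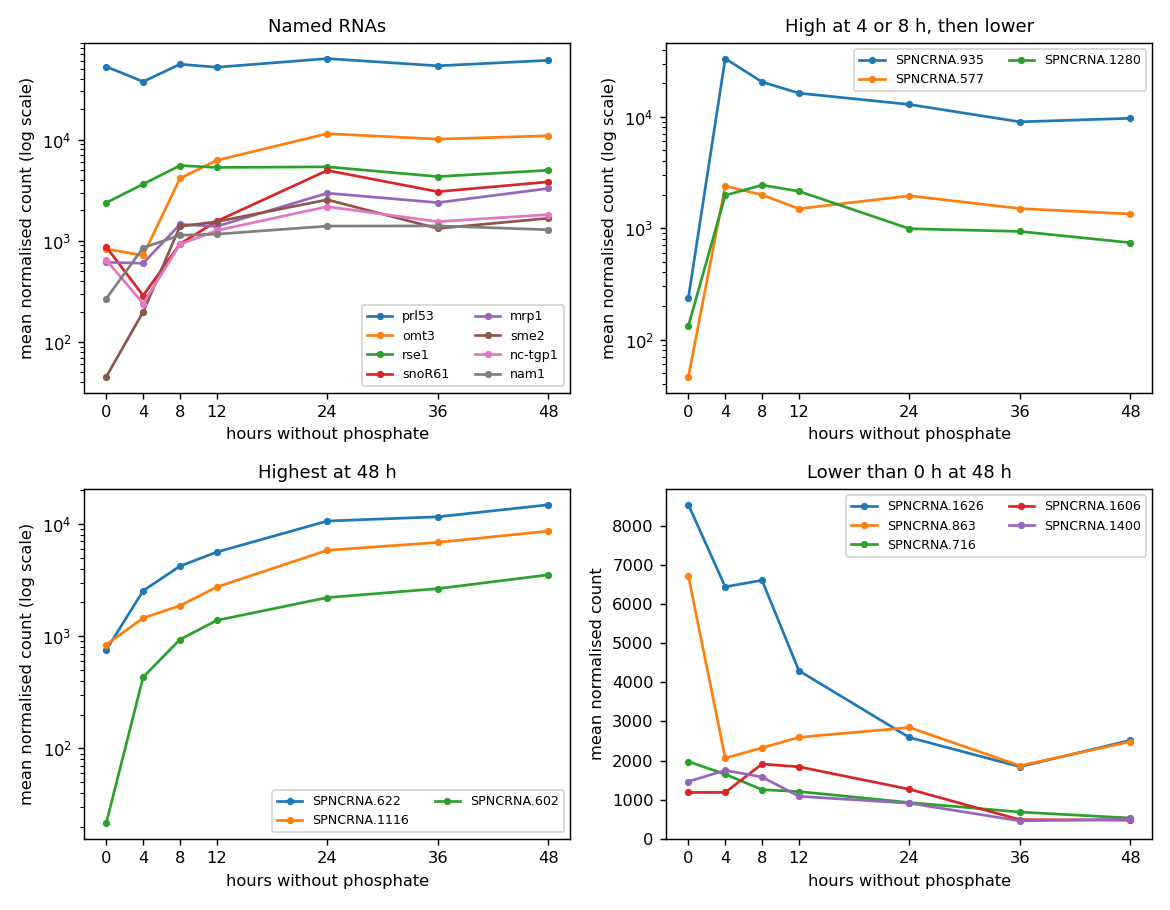
Mean normalised count against hours without phosphate for the 8 named RNAs, 3 members that stood highest at 4 or 8 h, 3 that stood highest at 48 h, and the 5 members past 2-fold lower at 48 h; the y axis is logarithmic except in the last panel. SPNCRNA.935 goes from 237 to 33230 counts between 0 and 4 h, and *snoR61* and *nc-tgp1* dip at 4 h to 288 and 239 counts.

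Some named members belong to meiosis and mating. *sme2* (SPNCRNA.103) encodes meiRNA, which binds Mmi1 and the meiosis regulator Mei2, and its long isoform is the entry counted here. Its means were 45.5, 198, 1390, 1547, 2549, 1325 and 1671, highest at 24 h, with a log2 ratio of 5.17 at 48 h. The *mrpl8* mRNA, which overlaps it on the same strand, stayed between 1911 and 2234 counts. The *mei2* mRNA was at 1426 counts at 0 h, 7929 at 4 h and 9359 at 48 h, and the *mmi1* mRNA at 2122, 1318 and 1449. *omt3* (SPNCRNA.130), annotated like *sme2* as an RNA of the Smp foci seen in meiosis, had 830, 717, 4141, 6253, 11473, 10122 and 10926 counts. It was near its 0 h level at 4 h and 3.72 above it on the log2 scale at 48 h, and *omt2*, the nearest coding gene, had a log2 ratio of -0.95.

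*rse1* (SPNCRNA.111) is a cis-acting repressor of *ste11*, the gene of the master transcription factor for mating. Its means were 2384, 3636, 5550, 5314, 5387, 4317 and 4987. The *ste11* mRNA was at 639 counts at 0 h, 2332 at 4 h and 2786 at 48 h, so repressor RNA (log2 ratio 1.06) and target mRNA (2.12) were both past 2-fold higher at 48 h. *nam1* (SPNCRNA.1459), which represses *byr2*, the MAP kinase kinase kinase gene of the pheromone pathway, had 269, 857, 1135, 1165, 1399, 1405 and 1288 counts. The *byr2* mRNA was highest at 4 h (535 counts at 0 h, 1047 at 4 h and 639 at 48 h). *nam1* overlaps *mlo3*, an RNA export factor gene on its own strand, whose mean went from 9841 to 5908 counts.

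*nc-tgp1* (SPNCRNA.1698) is transcribed across the promoter of *tgp1*, which encodes a glycerophosphodiester transporter, and overlaps it on the same strand. Its means were 646, 239, 925, 1266, 2178, 1548 and 1816 counts, with a log2 ratio of -1.43 at 4 h and 1.49 at 48 h. The *tgp1* mRNA stood at 323 counts at 0 h, 33888 at 4 h, 54857 at 24 h and 39351 at 48 h. The lncRNAs upstream of the other phosphate genes were below the level limit. *prt2*, upstream of the phosphate transporter gene *pho84*, had 864, 284, 619, 681, 903, 852 and 1176 counts, and *nc-pho1*, upstream of the acid phosphatase gene *pho1*, had 161, 62.3, 149, 148, 285, 197 and 252. All 3 of these lncRNAs were past 2-fold lower at 4 h, with log2 ratios of -1.43, -1.60 and -1.36 in the order named. With the summed counts set to the 0 h sum these ratios were -1.23, -1.40 and -1.16. As CPM they were -1.16, -1.34 and -0.93, so *nc-pho1* was not past 2-fold lower on that scale. At 24 h the log2 ratios were 1.75 for *nc-tgp1*, 0.06 for *prt2* and 0.82 for *nc-pho1*. At 48 h they were 1.49, 0.44 and 0.64 in that order. The *pho1* and *pho84* mRNAs had log2 ratios of 2.81 and 2.58 at 48 h. How reads from the overlap of *nc-tgp1* and *tgp1* were assigned is not stated.

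*mrp1* (SPNCRNA.82) is the RNA of RNase MRP, an enzyme of ribosomal RNA processing, and had 613, 601, 1454, 1390, 2961, 2386 and 3296 counts. *snoR61* (SPNCRNA.445), a small nucleolar RNA of the kind that guides ribosomal RNA modification, had 869, 288, 932, 1564, 4967, 3060 and 3827. Mature RNAs of these kinds are not normally polyadenylated, and the libraries were made from poly(A)+ RNA, so the values cover only molecules kept by that selection. Among the other structural RNAs of the list, below the limit, the signal recognition particle RNA *srp7* had 74.4 counts at 0 h and 1014 at 48 h (log2 ratio 3.75), while the RNase P RNA *rrk1* (0.83) and the telomerase RNA *ter1* (0.72) were within 2-fold at 48 h. The whole list of named non-coding RNAs also holds *sme2* and the lncRNAs of the 3 phosphate genes. Of its 8 RNAs with an average of at least 10, 4 were past 2-fold higher at 48 h (5 as CPM), beside 25.8% of all genes (28.1% as CPM), and none was lower. The 3 of them past 2-fold lower at 4 h were *nc-tgp1*, *prt2* and *nc-pho1*, beside 13.3% of all genes (2 RNAs and 9.13% as CPM). No structural RNA of the list was among them, but *snoR61*, which the list does not hold, was also past 2-fold lower at 4 h (-1.59).

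Of the 87 members found in the reference annotation, 57 overlap a coding gene on the opposite strand, 18 overlap only an opposite-strand gene of another class, and 10 overlap no listed gene. The kit marks strand. Whether the counts were made by strand is not stated in the labels or methods. It is therefore not known how reads from the overlap of a member and the gene opposite it were assigned or set aside. It is a measured fact that 7 members lie wholly inside the opposite gene in the reference and still had counts of their own, as SPNCRNA.67 inside *epe1* (351 counts at 0 h and 1927 at 48 h). Members with and without an opposite-strand coding gene had median log2 ratios of 2.05 and 2.35 at 48 h, with 44 of 57 and 25 of 30 past 2-fold higher. The share was 79.5% over all 88 members and 25.8% over all genes with an average of at least 10.

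Where 2 coding genes overlap a member on the opposite strand, as for 12 members, the one with the longest overlap was taken. At 48 h, 17 of the 57 coding genes (29.8%) were past 2-fold higher and 10 (17.5%) past 2-fold lower, beside 17.8% and 22.0% of the 5016 coding genes with an average of at least 10. Of the 44 members past 2-fold higher, the gene opposite was past 2-fold lower in 8 cases, past 2-fold higher in 11 and within 2-fold in 25. With the other gene of those 12 members in its place, an alternative chosen after the values were seen, these numbers were 8, 10 and 26. Over the 7 times the correlation of member and opposite gene (Pearson's r of log2 means, which share the same 7 sets of libraries) was below 0 in 29 pairs and above 0 in 28.

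Several of the members with the highest averages or widest ratios lie opposite a gene that was within 2-fold of 0 h or lower at 48 h. *sty1*, which encodes the stress-activated MAP kinase, had 7998 counts at 0 h and 4550 at 48 h opposite SPNCRNA.622, which had 756 and 14846. A second gene opposite SPNCRNA.622, SPAC24B11.07c, had a log2 ratio of -0.25. *bst1*, a GPI inositol deacylase gene, had 1864 and 2280 counts opposite SPNCRNA.754, and *ubp16*, a ubiquitin hydrolase gene, had 935 and 684 opposite SPNCRNA.1137. SPBC1652.02, an amino acid transporter gene, had 5019, 2386, 1682, 1529, 1436, 1451 and 1605 counts opposite SPNCRNA.577. The gene was lower than at 0 h at all 6 later times and the member higher.

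The other pairs of the higher-against-lower kind were singled out after their values were seen. *mid2*, a septin ring organiser gene, had 10248, 8897, 6055, 5538, 2332, 1633 and 1336 counts opposite SPNCRNA.1021, which had 328, 790, 1581, 1655, 1655, 1460 and 1336. The second gene opposite SPNCRNA.1021, the RNA polymerase II subunit gene *rpb9*, was within 2-fold at 48 h (-0.63). *rad8*, a DNA repair gene, went from 6093 to 1218 counts opposite SPNCRNA.617 (359 to 1480). The nucleoporin gene *nup120* went from 3632 to 1318 opposite SPNCRNA.1656 (124 to 2011), and the mannosyltransferase gene *imt2* from 698 to 175 opposite SPNCRNA.1253 (297 to 1496). The remaining genes of these 8 pairs were *cmr2*, *mug68* and SPAC10F6.15, with log2 ratios of -1.01, -1.79 and -1.34. *cmr2* went from 1864 to 922 counts. *mug68* (78.4 to 22.0) and SPAC10F6.15 (50.4 to 19.2) had low counts at both times.

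The reverse arrangement, a lower member and a higher gene, occurred in 2 pairs. *mbx2*, a MADS-box transcription factor gene, had 622, 977, 1693, 1943, 3246, 4281 and 3884 counts opposite SPNCRNA.1626. A second gene opposite SPNCRNA.1626, SPBP8B7.32, was also past 2-fold higher at 48 h (1.74). SPAC56F8.12, opposite SPNCRNA.716, went from 18.2 to 154 counts but stood at 29.1 at 36 h, and the second gene there, the signal peptidase gene *spc3*, was within 2-fold (0.35). In other pairs both strands were higher: the enolase gene *eno102* went from 250 to 23524 counts while SPNCRNA.1302, wholly inside it, went from 175 to 1216. The beta-glucosidase gene *psu2* went from 73.7 to 4448 counts opposite SPNCRNA.1601 (284 to 2537).

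**Figure D4:**
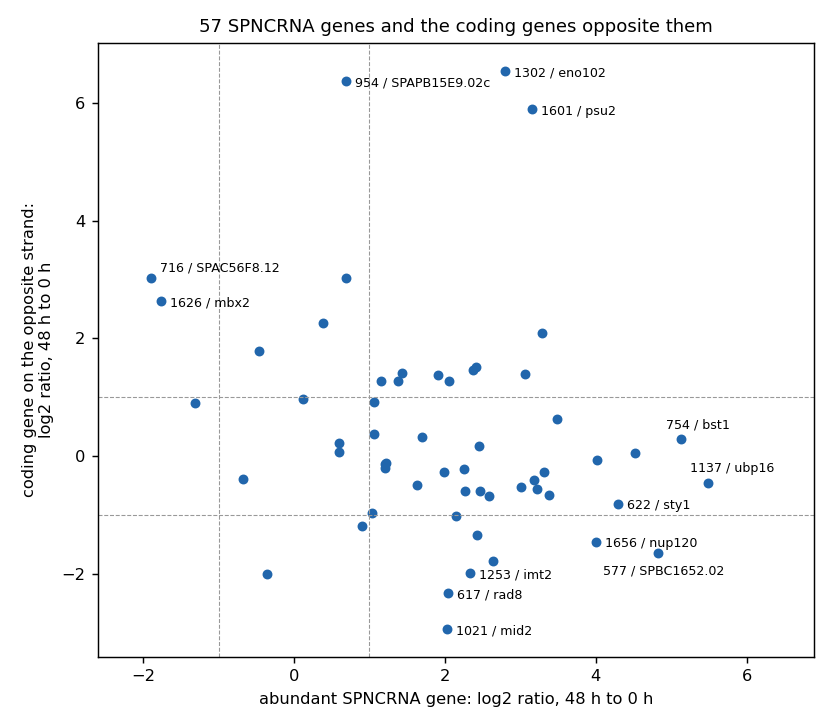
Log2 ratio of 48 h to 0 h for 57 abundant SPNCRNA genes (x) and for the coding gene with the longest overlap on the opposite strand of each (y), with 13 pairs labelled by the number of the SPNCRNA gene and the coding gene; dashed lines mark 2-fold. The lower right corner holds the 8 pairs with a higher member and a lower gene (*mid2* at -2.94, *rad8* at -2.32) and the upper right the 11 pairs in which both were higher (*eno102* at 6.55, *psu2* at 5.90).

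On the same strand, 17 members overlap another listed gene. The genes next to the 14 possible alternative UTRs differed from pair to pair: *osr2*, a potassium channel subunit gene that follows SPNCRNA.1280, had log2 ratios of 2.75 at 4 h and 0.80 at 48 h beside 3.88 and 2.47 for the RNA, and its r over the 7 times was 0.84. *met26*, the methionine synthase gene that follows SPNCRNA.742 and overlaps it, went from 121272 to 24778 counts (-2.29) while the RNA stood at 459 and 1486 (1.69). The r was -0.77 for *met26* and 0.97 for SPCC1235.01, which follows SPNCRNA.1115 and overlaps it. Of these 14 members, 8 were past 2-fold higher at 4 h and 12 at 48 h, with a median log2 ratio of 2.12 at 48 h. Beside them stand 44.3% and 79.5% of all 88 members, chosen by the same rule, and 15.6% and 25.8% of all genes.

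The mRNAs of RNA decay, RNA end formation and chromatin factors are given beside all coding genes with an average of at least 10. Whether the members are targets of these factors was not tested. Of the coding genes, 13.6%, 19.0%, 18.6%, 20.4%, 19.8% and 22.0% were past 2-fold lower at the 6 times. Past 2-fold higher were 12.4% at 4 h and 17.8% at 48 h. As CPM, 10.2% of coding genes were lower at 4 h and 13.7% at 48 h. Of 15 genes of the nuclear exosome and its cofactors, none was past 2-fold higher at any time, and 5, 7, 7, 5, 7 and 5 were past 2-fold lower at the 6 times, with a median log2 ratio of -0.89 at 4 h and -0.91 at 48 h, beside -0.04 and -0.22 for the coding genes (-0.68 and -0.64, with 2 and 3 genes lower, as CPM). The TRAMP helicase gene *mtr4* had 7744 counts at 0 h, 2512 at 4 h and 2737 at 48 h, the TRAMP poly(A) polymerase gene *cid14* 4365, 1406 and 1554, and the exosome nuclease gene *dis3* 5489, 2483 and 1948. The gene of the other exosome nuclease, *rrp6*, was within 2-fold at 4 and 48 h (-0.76 and -0.23). Of 12 genes of MTREC and Mmi1, 1 was past 2-fold higher at 48 h, the zinc finger protein gene *red5* (1832 to 6488 counts), and 1 lower, the helicase gene *mtl1* (-1.08), which was not past 2-fold as CPM.

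Of 18 genes linked to Set2 and the histone deacetylase complex Clr6 complex II, which hold down transcription from inside genes, none was past 2-fold lower at 4 h and 7, 9, 11, 7 and 9 were at the 5 later times, with none higher. Their median log2 ratio was -0.45 at 4 h and -1.03 at 48 h (-0.25 and -0.76 as CPM). These counts depended on the scaling: as CPM, 1, 1, 4, 5 and 5 genes were lower at the 5 later times. At 8, 12 and 24 h 1 gene was higher as CPM. The 1 lower gene at 8 and at 12 h (5.56%) stands beside 10.6% and 10% of coding genes lower as CPM. The histone chaperone gene *prw1* had 2509 counts at 0 h and 849 at 48 h. Of 10 genes of 5′ decay and decapping, 2 were past 2-fold lower at 48 h (beside 22.0% of coding genes), among them *upf1*, a helicase of nonsense-mediated decay (4971 to 1035 counts). Among 17 genes of RNA interference and heterochromatin, 2 were past 2-fold higher and 2 lower at 48 h, with a median of -0.06 (0.20 as CPM, with 3 higher and 0 lower), and *arb2*, an Argonaute-binding protein gene, went from 391 to 807 counts. Of 19 cleavage, polyadenylation and termination genes, 1 was past 2-fold higher and 4 were lower at 48 h, 21.1% beside 22.0% of coding genes, with a median of -0.41 (1 lower and -0.14 as CPM). The shares of the 5′ decay and of the cleavage and termination genes were near those of all coding genes. A part of these factors in the members' levels was not tested.

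**Figure D5:**
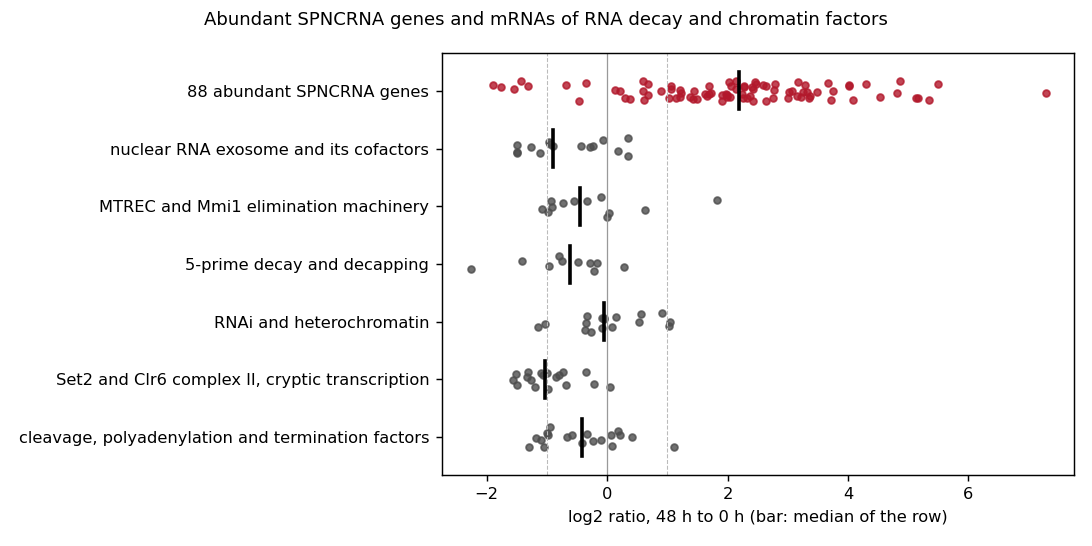
Log2 ratio of 48 h to 0 h for the 88 abundant SPNCRNA genes and for the mRNAs of 6 lists of RNA decay, RNA end formation and chromatin factors; each point is a gene and each black bar the median of its row. The members' median is 2.20, and their selection on a level over mostly starved times contributes to it. The list medians run from -1.03 (Set2 and Clr6) and -0.91 (exosome) to -0.06 (RNA interference and heterochromatin). All coding genes with an average of at least 10 have a median of -0.22. As CPM these 4 medians are -0.76, -0.64, 0.20 and 0.04.

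At the level limit the last members inside were SPNCRNA.800, with an average of 1011.27 and means from 211 at 0 h to 1700 at 48 h, and SPNCRNA.857, with 1011.10 and means from 763 to 1227. The first genes outside were SPNCRNA.889 (average 994, means from 608 to 1240) and SPNCRNA.1505 (983, with 1745 counts at 0 h and 671 to 985 afterwards). These values describe the limit and carry no test.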

How the data were processed

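Poly(A)+ RNA of 21 samples (3 replicates at each of 7 times) was sequenced from stranded libraries. By the study's methods and the submitters' processing notes, the authors mapped reads with HISAT2 2.1.0, converted them with SAMtools, counted them over exons of the ASM294v2 annotation with HTSeq 0.10.0 and normalised them in DESeq2. Each of 6 deposited tables holds, as signal on the scale of counts divided by size factors, the authors' mean at 0 h and at 1 later time. These means are all that was used, so no library-level spread or test could be given. The tables also hold the authors' own comparisons (mean over libraries, fold change, its error, statistic, p-value and adjusted p-value), which were not used. No column of a single library was used (0).

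Time points were grouped by the labels. Log2 ratios used a pseudocount of 1, and 2-fold was the limit of a call; the background was genes with an average of at least 10. All means below 2 (108 to 159 per time) were sums of whole reads within 1e-06, with size factors from 0.804 to 1.32. Names, products and overlaps came from RefSeq's ASM294v3. Locus tags matched 6836 identifiers and synonyms 12, and 140 had no match; as it is not the authors' build, no coordinates or sequences are given. The steps were tested on simulated data. Calculations ran in Python with pandas and numpy.

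The members and gene lists were chosen with earlier results of these data known, and 2 genes were removed from a list because their product names fell outside it. Named members were the 10 with the highest averages, the 5 largest and 5 smallest ratios at 4 and at 48 h, those with gene names, those beside the level limit and the 3 widest and 3 flattest. Alternatives were centring on coding genes, CPM of the summed means, a pseudocount of 10 and other member and background limits.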

Additional observations from a re-analysis of the deposited data

How the results depend on the processing

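No paired analysis was possible because the values used are means over the replicates, and for the same reason leaving out each replicate was not run. Taking only the 16 members with a 0 h mean of at least 1000 left 1, 2, 2, 3, 2 and 3 members past 2-fold higher at the 6 times and 1 lower at 4 h. The median log2 ratio became -0.15, 0.15, 0.078, 0.21, -0.16 and -0.11, so that its sign was the opposite at 4, 36 and 48 h. The rule admits a gene with a low 0 h mean only if it is higher later, while these 16 were picked by a high 0 h mean. How far either choice accounts for the difference was not tested. Lowering the limit to an average of 500 gave 269 members, with 92, 163, 170, 187, 172 and 191 higher, 16, 6, 6, 7, 13 and 10 lower, and medians of 1.73, 1.57 and 1.69 at 24, 36 and 48 h. Centring on the median coding gene gave medians of 1.91 at 8 h and 2.46 at 24 h. CPM gave medians of 2.02, 2.16 and 2.46 at 8, 12 and 24 h, and 0 members lower at 12 h and 1 at 24 h. The same scaling with the pseudocount kept on the scale of the deposited means, added after the values were seen, gave medians of 2.098, 2.22, 2.50 and 2.46 at 8, 12, 24 and 48 h, and again 0 lower at 12 h and 1 at 24 h. The other alternatives (a pseudocount of 10, a median of at least 1000 in place of the average, 71 members without same-strand overlaps) moved no count by over 1.5 times. Of 60 ratios of named members under 3 other scalings, 1 changed its side of 2-fold, SPNCRNA.934 at 4 h (-1.01, or -0.77). Low 0 h means limit the largest ratios: the 21.7 counts of SPNCRNA.602 stand for 61 to 63 reads.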
